A study of Mus musculus with 19 samples.

Results

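Cela1 and Cela2a encode chymotrypsin-like elastases, digestive serine proteases. Amy2a5 encodes a pancreatic alpha-amylase and Cpb1 encodes carboxypeptidase B1, and both stand here as further genes of pancreatic acinar cells. The 4 genes were measured in mouse liver on single-colour Illumina BeadChips, arrays on which each probe is carried by beads and read as a fluorescence intensity. Their probes were found by gene symbol in the platform annotation, which gave 5 of the 45281 probes on the array, for 4 of 10269 named genes. Cela1, Cela2a and Cpb1 had 1 probe each and Amy2a5 had 2. Only probes in the authors' table of log2 values carry gene symbols here, so these genes may have further, unnamed probes. The elastases were chosen because earlier results of these arrays showed them lower in knockout livers and higher with treatment, so their changes between the groups are given as a description with no test. Amy2a5 and Cpb1 were set beside them as other acinar genes.

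The study asked how expression in livers of Mat1a knockout (KO) and wild-type (WT) mice differs with and without S-adenosylmethionine (SAMe) treatment. Mat1a encodes the enzyme that makes SAMe in liver, and cells spend SAMe as a donor of methyl groups. The groups were KO SAMe (Mat1a KO mice given SAMe, n = 5), KO placebo (Mat1a KO mice given placebo, n = 6) and WT placebo (wild-type mice given placebo, n = 8), each animal aged 10 months, with a treatment of 8 weeks. Each of the 19 arrays carried liver RNA of 1 animal ID. No WT group given SAMe was analysed here, so a SAMe effect without the knockout could not be set beside these groups. For the SAMe dose, the animals' sex and strain, and how the knockout was made, the sources used here give nothing.

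Pancreatic acinar cells make digestive enzymes, among them trypsins, chymotrypsins, elastases, amylase, lipase and carboxypeptidases, and secrete many of them as inactive precursors that are cut in the gut. Elastases cleave elastin and other proteins after small side chains, and in blood and tissue they are held in check by serpins such as alpha-1-antitrypsin, which hepatocytes secrete. In acinar cells the genes are switched on by the complex PTF1, which holds Ptf1a and Rbpjl and binds an E-box next to a second, pyrimidine-rich box.

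The promoters of the 2 elastase genes are shown because these were the genes whose signals differed between the groups. Each is 300 bases, from 250 before to 50 after the RefSeq start site, in GRCm38.p6, read 5′ to 3′ along the gene, which lies on the minus strand in both cases: Cela1 at chr15:100687871-100688170 and Cela2a at chr4:141825956-141826255. Capitals mark the word CACCTG, which is an E-box, the pyrimidine-rich word TTTCCC, the GATA-type word TGATAA and the TATA-box word TATAAA. Matches on either strand are marked, so CAGGTG in a window is the E-box read from the other strand, and likewise GGGAAA is the pyrimidine-rich word.
Cela1: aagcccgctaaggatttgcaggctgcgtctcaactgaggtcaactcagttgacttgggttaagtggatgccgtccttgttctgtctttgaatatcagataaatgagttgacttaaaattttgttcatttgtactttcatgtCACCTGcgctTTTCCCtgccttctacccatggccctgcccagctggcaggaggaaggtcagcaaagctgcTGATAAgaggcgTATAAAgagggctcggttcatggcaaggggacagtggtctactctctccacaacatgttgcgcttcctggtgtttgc
Cela2a: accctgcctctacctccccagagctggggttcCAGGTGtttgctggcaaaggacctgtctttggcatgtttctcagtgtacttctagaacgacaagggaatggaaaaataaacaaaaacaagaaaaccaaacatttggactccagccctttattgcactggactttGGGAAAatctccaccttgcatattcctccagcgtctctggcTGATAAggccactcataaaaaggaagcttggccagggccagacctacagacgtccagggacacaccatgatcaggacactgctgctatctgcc

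The Cela1 window held CACCTG at -109, TTTCCC at -99, TGATAA at -39 and TATAAA at -27 from the start site, all on the gene's strand. The Cela2a window held CACCTG at -218 and TTTCCC at -84 on the opposite strand and TGATAA at -43 on its own strand, with no TATAAA. These words were chosen after reading the sequences, do not overlap each other in either window, and are common: CACCTG was in 20.21%, TTTCCC in 25.25%, TGATAA in 9.05% and TATAAA in 13.62% of 32851 promoters of the same length, counting both strands. The longest word that the windows shared on the same strand was CTGTCTTTG, of 9 letters, at -170 in Cela1 and -196 in Cela2a, found in 0.53% of all promoters. On opposite strands the longest shared word had 8 letters. CTGTCTTTG was picked because both windows hold it, so nothing is read from how rare it is. Among the other acinar genes, the Amy2a5 window held TTTCCC at 36 and TATAAA at -30, and the Cpb1 window held CACCTG at -94 and TATAAA at 35. A match is a description of letters and not a binding site.

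Several facts about the arrays bear on all values. Mat1a averaged 9.64 ± 0.12 in KO SAMe livers and 9.52 ± 0.31 in KO placebo livers, against 12.12 ± 0.14 in WT livers (log2 intensity, SD, n = 5, 6 and 8), and where its probe lies relative to the deletion is not given. All 8 named hepatocyte markers of a list of 10 were detected on all 19 arrays. By their median raw signal the arrays fell into 2 sets, 5 high (93.6 to 99.97) and 14 low (75.1 to 85.8). The high set held 4 of the 6 KO placebo arrays, 1 of 8 WT arrays and 0 of 5 KO SAMe arrays. The same 4 KO placebo arrays share a letter in the animal ID that no other array has, so this background and the group are partly confounded. The other 2 KO placebo arrays carry the letter G, and all 8 WT arrays carry the letter K. KO placebo and WT arrays thus share no letter, so letter and group cannot be told apart in that comparison. Values or counts within the low set, which holds 2 KO placebo arrays, are given beside the 4 genes and beside calls of other named genes that ended there. A probe counted as detected on an array where its deposited detection p was under 0.05.

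Cela1 was detected on all 19 arrays and was lowest in KO placebo livers. Its log2 intensity was 7.85, 7.71, 7.83, 7.74 and 7.85 in the 5 KO SAMe livers. In the 6 KO placebo livers it ran from 5.99 over a median of 7.02 to 7.63, and in the 8 WT livers from 8.22 over a median of 8.38 to 8.86. The groups did not overlap in any of the 3 comparisons, with KO SAMe livers between the other groups.

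Against WT, Cela1 was 2.88-fold lower in KO placebo livers, a log2 change of -1.53 (SE 0.19), with means of 6.94 ± 0.64 and 8.46 ± 0.22 (SD, n = 6 and 8). Livers of KO SAMe mice averaged 7.80 ± 0.066 (SD, n = 5), which is 1.81-fold higher than KO placebo, a log2 change of 0.86 (SE 0.21), and 1.59-fold lower than WT, a log2 change of -0.67 (SE 0.20). Non-overlapping groups were found for 8.53% of 10831 features with lower signal in KO placebo than in WT, 5.15% with higher signal in KO SAMe than in KO placebo, and 2.62% with lower signal in KO SAMe than in WT. Cela1 was chosen on these contrasts, so nothing is read from its place among them. The joint pattern that chose it, lower in KO placebo than in WT and higher in KO SAMe than in KO placebo with no overlap in either, was met by 296 features (2.73%), and passing the limma threshold in both was met by 8.31%.

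Among KO placebo livers Cela1 averaged lower in the high-background set, but the 2 sets overlapped. The 4 KO placebo arrays of the high set averaged 6.71 (5.99 to 7.54) and the 2 of the low set 7.38 (7.13 to 7.63). The single WT array of the high set stood at 8.32, and the 7 of the low set averaged 8.48 (8.22 to 8.86). Within the low set alone, the Cela1 change was -1.10 for KO placebo over WT and 0.41 for KO SAMe over KO placebo. With the animal ID letter as a term it was -1.18 and 0.44. Both values rest on KO SAMe replicate 3, the single KO SAMe array whose letter KO placebo arrays share. KO placebo and WT share no letter, so -1.18 also rests on KO SAMe replicates 2 and 4, which share the letter of WT. The direction was the same without the high-background arrays, and both changes were smaller. The part of the background in the remaining difference was not tested.

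Cela2a gave a dim signal, detected on 18 of 19 arrays, and it was lowest in KO placebo livers too. Its log2 intensity was 5.64, 5.93, 6.14, 5.56 and 6.44 in the 5 KO SAMe livers. It ran from 4.31 over a median of 4.52 to 5.04 in the 6 KO placebo livers, of which replicate 2 did not reach detection. In the 8 WT livers it ran from 4.90 over a median of 5.62 to 6.38. KO SAMe livers lay wholly above KO placebo livers and within the range of WT or just past it, while KO placebo and WT overlapped by the lowest WT and the highest KO placebo array.

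Cela2a averaged 5.94 ± 0.36 in KO SAMe livers (SD, n = 5), 4.57 ± 0.25 in KO placebo livers (n = 6) and 5.58 ± 0.46 in WT livers (n = 8). That is a log2 change of 1.37 (SE 0.21), or 2.59-fold higher, for KO SAMe over KO placebo, and of -1.01 (SE 0.19), or 2.01-fold lower, for KO placebo over WT. For KO SAMe over WT the change was 0.36 (SE 0.20), or 1.29-fold higher. The order of the Cela2a levels was thus KO SAMe, WT and KO placebo, but the WT and KO SAMe ranges overlapped. Cela1 was ordered otherwise, with WT above KO SAMe in every array.

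The dim signal makes the size of the Cela2a change depend on how background was removed. Raw Cela2a signals were 80.9 to 149 on arrays whose median raw signal was 75.1 to 99.97. Without background correction the change was 0.52 for KO SAMe over KO placebo and -0.36 for KO placebo over WT, in the same direction. The 4 high-set KO placebo arrays averaged 4.56 and the 2 low-set ones 4.60, and within the low set the changes were 1.35 and -0.96. For Cela2a the KO placebo level was thus as low without the high-background arrays.

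**Figure D1:**
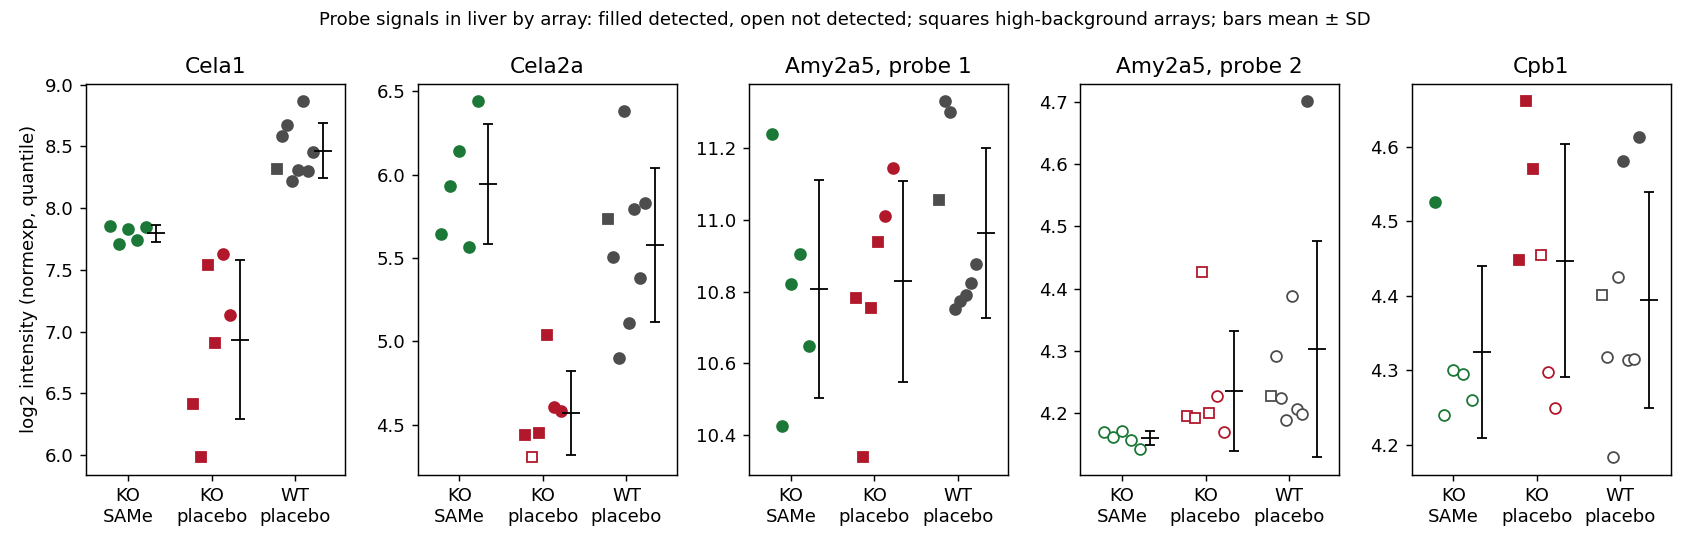
Log2 intensity of each probe of Cela1, Cela2a, Amy2a5 and Cpb1 by array in KO SAMe, KO placebo and WT placebo livers (1 point per animal, filled where detected, squares for high-background arrays, bars mean ± SD). Cela1 runs 7.71 to 7.85 in KO SAMe, 5.99 to 7.63 in KO placebo and 8.22 to 8.86 in WT, while the Amy2a5 and Cpb1 groups overlap.

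**Figure D2:**
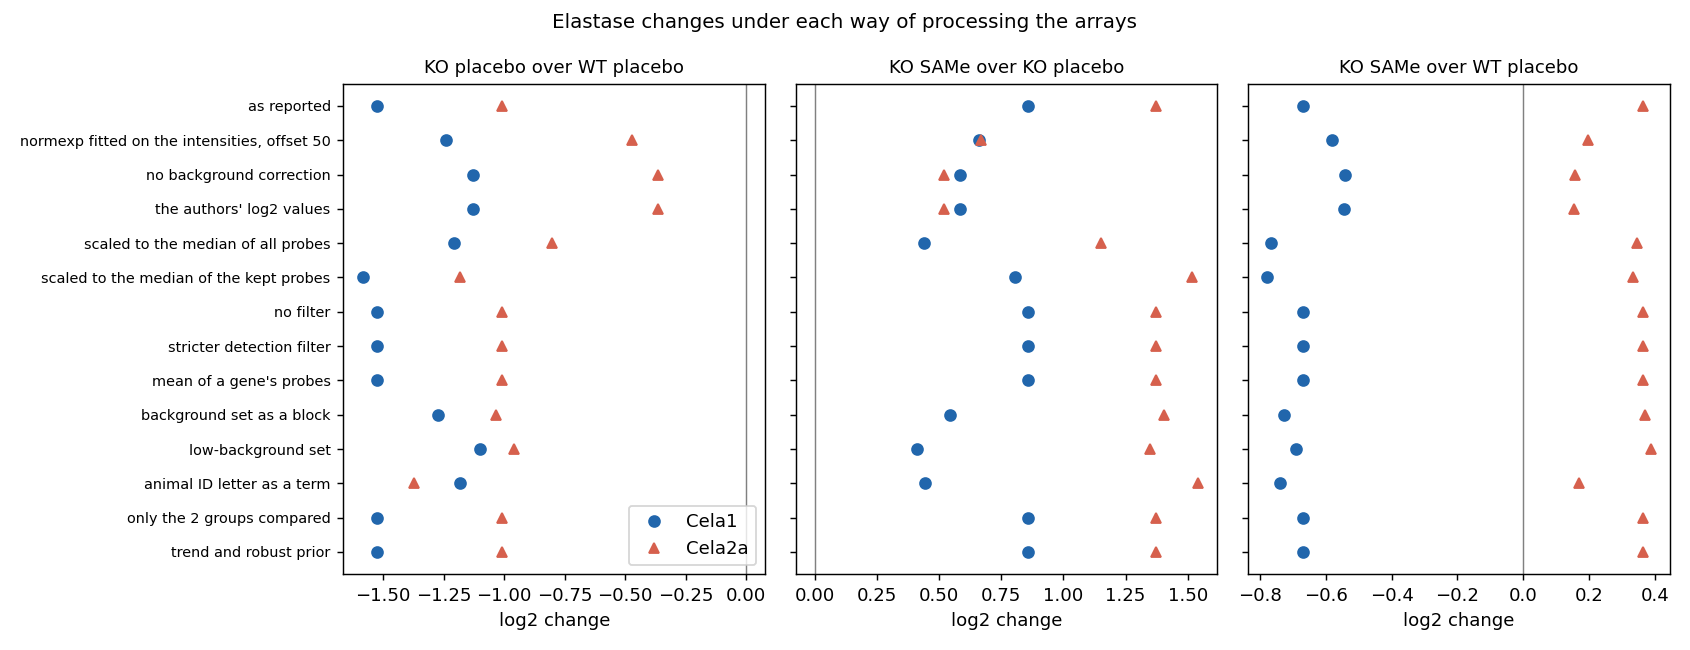
Log2 change of Cela1 and Cela2a in the 3 comparisons under each way of processing the arrays. Every setting keeps each gene's sign, while Cela2a for KO placebo over WT runs from -1.37 to -0.36.

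Both elastases were lowest in KO placebo livers, and their correlation within groups did not pass in either group tested. In KO placebo livers Pearson's r of Cela1 and Cela2a was 0.32 (exact two-sided permutation p = 0.575) and Spearman's rho 0.60 (p = 0.242), n = 6. Without the 2 arrays farthest from the Cela1 median r was -0.07. In WT livers r was -0.24 (exact permutation p = 0.56), rho -0.19 (p = 0.665), n = 8, and r was -0.26 without the 2 farthest arrays. Within the 7 low-set WT arrays r was -0.22 (exact permutation p = 0.641). The 5 KO SAMe arrays were not tested for correlation, and the KO placebo sets held 4 and 2. Across all 19 arrays r was 0.58, but after taking out the group means it was 0.05.

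Of the 12 such relations among the 4 genes in the 2 groups, 1 passed the 0.05 threshold. Amy2a5 and Cpb1 in KO placebo livers had r = -0.92 (exact permutation p = 0.00278, Benjamini-Hochberg adjusted p = 0.0333) and rho = -0.94 (exact permutation p = 0.0167, adjusted p = 0.2), n = 6, and r = -0.84 without the 2 farthest arrays. Here the 4 high-set arrays averaged 10.70 for Amy2a5 and 4.53 for Cpb1, and the 2 low-set arrays 11.08 and 4.27. The sets hold too few arrays for a value within them, and the relation passed under 0 of 5 alternative normalizations. Cpb1 was detected on 3 of these 6 arrays, so the relation rests on values near the floor.

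**Figure D3:**
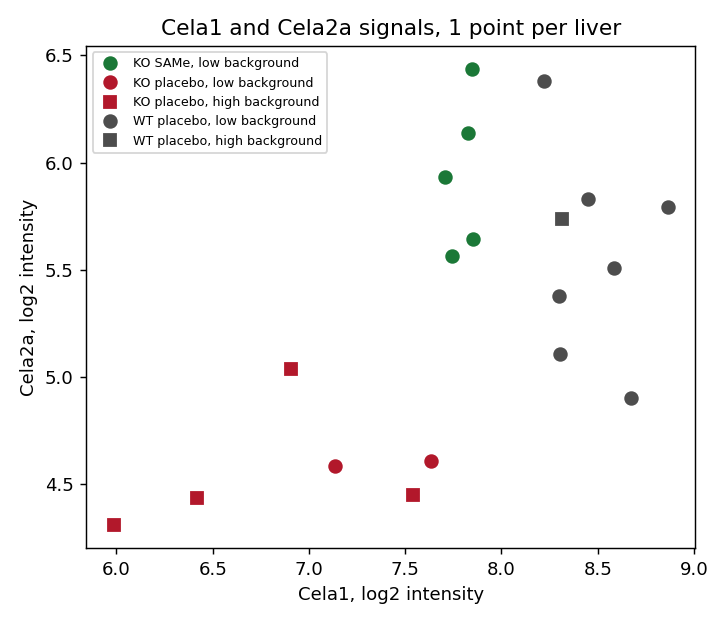
Cela2a against Cela1 log2 intensity, 1 point per liver, coloured by group. The KO placebo livers lie at low values of both genes, and the groups show no shared slope (r = 0.32 in KO placebo and -0.24 in WT).

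Amy2a5 was bright, and its 3 groups overlapped. Its first probe was detected on all 19 arrays, with 11.24, 10.43, 10.82, 10.91 and 10.65 in KO SAMe livers. It ran from 10.34 over a median of 10.86 to 11.15 in KO placebo livers and from 10.75 over 10.85 to 11.33 in WT livers. No group of arrays stood apart from another. In the limma fit over all features the log2 change was -0.13 (95% interval -0.42 to 0.15, adjusted p = 0.483) for KO placebo over WT, -0.02 (-0.34 to 0.30, adjusted p = 0.955) for KO SAMe over KO placebo and -0.15 (-0.45 to 0.15, adjusted p = 0.521) for KO SAMe over WT. Scaling each array to the median of the kept probes in place of quantile normalization gave -0.48 for KO placebo over WT (limma adjusted p = 0.0152), on a scale where the median of all genes moved by -0.20. Within the low set the Amy2a5 changes were 0.13 (limma adjusted p = 0.715), -0.27 (adjusted p = 0.561) and -0.14 (adjusted p = 0.583) in the order above.

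The second Amy2a5 probe disagreed with the first in level of detection. It was detected on 1 of 19 arrays (WT replicate 8) and did not pass the detection filter, with values of 4.14 to 4.70. Amylase genes occur as near-identical copies, and Amy1, the salivary and liver amylase, lies in the same family, so which transcripts each Amy2a5 probe reads is uncertain. Amy1 itself was detected on all 19 arrays by both of its probes. Its brightest probe changed by -0.03 (KO placebo over WT, limma adjusted p = 0.935), -0.24 (KO SAMe over KO placebo, adjusted p = 0.562) and -0.27 (KO SAMe over WT, adjusted p = 0.484). The second Amy1 probe gave 0.22, -0.83 and -0.61 in the same order.

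Cpb1 lay at the floor of the arrays. It was detected on 1 of 5 KO SAMe, 3 of 6 KO placebo and 2 of 8 WT arrays. Its log2 intensity was 4.53, 4.24, 4.30, 4.29 and 4.26 in KO SAMe livers, and ran from 4.25 over 4.45 to 4.66 in KO placebo livers and from 4.18 over 4.36 to 4.61 in WT livers. The groups overlapped throughout. Cpb1 passed the detection filter only through KO placebo, the group where it was highest, so its changes are a description with no test. The log2 change was 0.05 for KO placebo over WT, -0.12 for KO SAMe over KO placebo and -0.07 for KO SAMe over WT. Scaled to the median of the kept probes, KO placebo over WT gave -0.24. Within the low set the changes were -0.12, 0.05 and -0.07 in the order above. On a probe this near the floor such small changes do not bound the change of the transcript. Amy2a5 passed in none of the comparisons of the limma fit. Of the 10831 features 40.2%, 18.5% and 17.6% passed for KO placebo over WT, KO SAMe over KO placebo and KO SAMe over WT.

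The other acinar enzymes were near the floor as well. Of 27 further acinar enzymes listed, 5 were named in the annotation: Cela3b (another elastase), Clps (colipase), Ctrl (a chymotrypsin-like protease), and Prss2 and Prss3 (trypsinogens). They were detected on 2, 2, 4, 4 and 3 of 19 arrays in that order, and 0 passed the detection filter. Their summed intensity was 99.0 to 107 in KO SAMe livers, 93.9 to 102 in KO placebo livers and 97.1 to 118 in WT livers, over 5 probes. The 3 ranges overlapped, and a change of these enzymes below detection was not measurable here. Only probes with a detection p below 0.01 on 1 array or more carry gene symbols here. A listed enzyme that was not named may thus be on the array without having reached that level. Of the 6 named acinar transcription factors, Gata6, Nr5a2 and Xbp1 were detected on 19 arrays and Foxa2 on 15, while Bhlha15 and Rbpjl were detected on 4 and 1. Liver cells also express Gata6, Nr5a2, Xbp1 and Foxa2. Of the 6 named acinar secretory and growth proteins, Fkbp11 was detected on 19 arrays, Spink1 on 13, Tff2 on 8, Erp27 on 5, Reg1 on 3 and Dmbt1 on 2. The islet genes Chga, Nkx6-1, Pcsk1 and Slc30a8 were detected on 2, 3, 1 and 2. In bulk tissue, fewer cells of a type and less RNA per cell cannot be told apart.

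**Figure D4:**
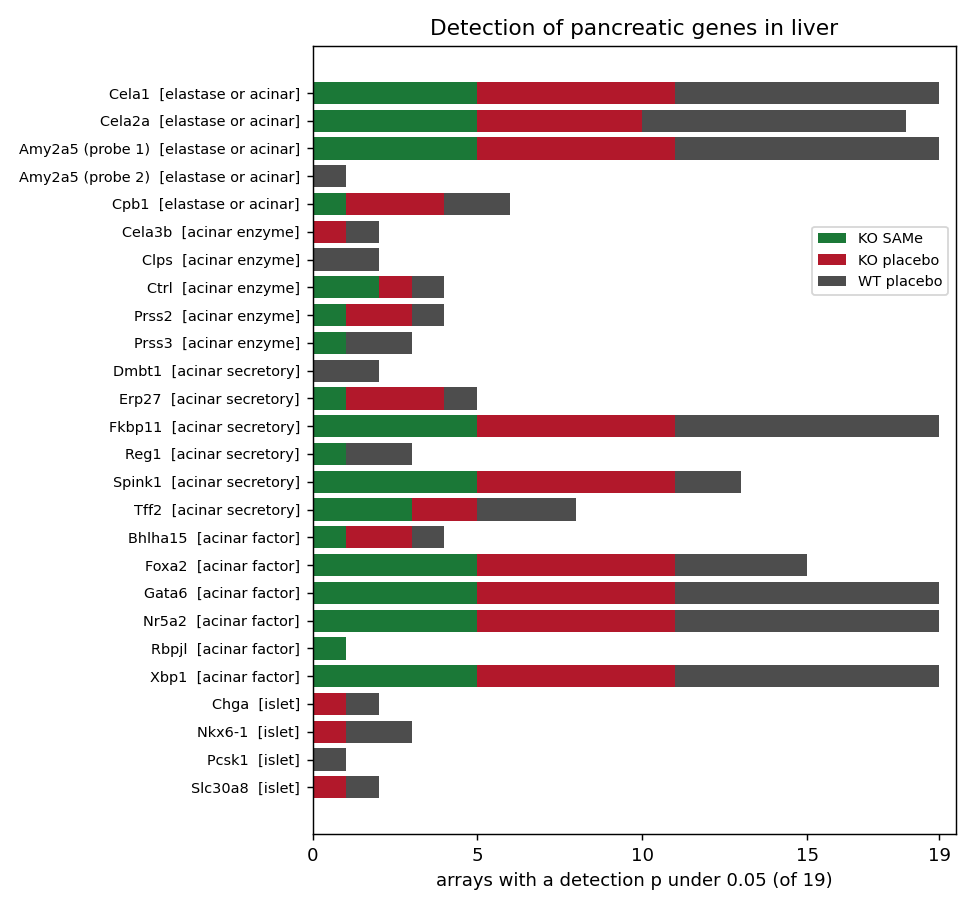
Number of the 19 arrays on which the 5 probes of the 4 genes, and the brightest probe of each named acinar and islet gene, were detected, stacked by group (KO SAMe, KO placebo, WT placebo). Cela1 and the first Amy2a5 probe reach 19 and Cela2a 18, Cpb1 reaches 6, the 5 other acinar enzymes 2 to 4, and Fkbp11, Gata6, Nr5a2 and Xbp1 reach 19.

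Among the secreted and growth proteins of acinar cells, 21 were listed, 6 named and 4 tested. Between KO placebo and WT, 1 rose and 1 fell. Over all 10831 features 19.8% rose and 20.4% fell in this comparison, 10.8% and 7.69% for KO SAMe over KO placebo, and 9.49% and 8.09% for KO SAMe over WT. Spink1, a trypsin inhibitor of pancreatic juice, rose by 2.87 (SE 0.31, limma adjusted p = 4.08e-07). It was detected on 6 of 6 KO placebo and 2 of 8 WT arrays, so the WT level is near background and this difference may understate the change. Fkbp11, a folding enzyme of secretory cells, fell by 1.31 (SE 0.19, adjusted p = 1.11e-05). For KO SAMe over KO placebo 0 of 4 passed, with -0.25 for Spink1 (limma adjusted p = 0.684) and 0.45 for Fkbp11 (adjusted p = 0.152). Fkbp11 did pass there with the background block (0.92, limma adjusted p = 0.0118) and within the low set (1.03, adjusted p = 0.0497), and its order of group means, WT, KO SAMe and KO placebo, was that of Cela1. On the kept-probe scale 1 rose and 3 fell for KO placebo over WT, the latter with Tff2 (-0.60) and Erp27 (-0.32), both near the floor. On that scale most calls over all features fell in this comparison, which bears on each list count below. Erp27 was detected on 1 of 5 KO SAMe, 3 of 6 KO placebo and 1 of 8 WT arrays. It passed the detection filter only with its highest group, and the counts of calls above are the same over the other 3 genes. Of 12 acinar transcription factors listed, 6 were named and 4 tested, and 0 passed for KO placebo over WT or KO SAMe over KO placebo, though 2 rose in KO placebo over WT when scaled to the median of all probes. For KO SAMe over WT, Gata6 passed with 0.43 (limma adjusted p = 0.0445), a call that ended on leaving out any 1 of 11 arrays (KO SAMe replicates 2, 3 and 5, KO placebo replicates 3 and 4, WT replicates 2 to 7), with an adjusted p of up to 0.172, within the low set (0.46, adjusted p = 0.0533) and under both median scalings.

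Cpb1 belongs to the M14 carboxypeptidases, of which 15 were listed, 10 named and 7 tested, 5 of these, Cpb1 included, having been detected on fewer than 5 arrays outside the group where they were highest, so that they passed the detection filter only with it. For KO placebo over WT, 1 of the other 2 rose, where 19.8% of all features did. It was Cpn1, the liver-made carboxypeptidase N that trims kinins in plasma (0.47, limma adjusted p = 0.0212). That call was lost without KO placebo replicate 1 (adjusted p = 0.0502) and within the low set (0.32, adjusted p = 0.201). Another Cpn1 probe, detected on all 19 arrays, averaged 8.07 in KO placebo and 7.96 in WT livers. A further Cpn1 probe near the floor averaged 4.41 and 4.39. Of these 2 genes, 0 passed in the comparisons with KO SAMe. Over all 7 on the kept-probe scale, 0 rose and 5 fell for KO placebo over WT, and 4 rose and 0 fell for KO SAMe over KO placebo. On that scale most calls over all features likewise fell in the first of these comparisons and rose in the second. The counts there are not read as a result about the carboxypeptidases. Of the alpha-amylases and their relatives, 3 of 6 were tested. Gaa, the lysosomal glucosidase, was higher in KO placebo than in WT by 0.57 (limma adjusted p = 0.00254), but not past the threshold within the low set (0.38, adjusted p = 0.219). It fell by 0.52 in KO SAMe over KO placebo (limma adjusted p = 0.0267). That call ended under the background block, where the change was as large (-0.55, adjusted p = 0.0832), within the low set (-0.38, adjusted p = 0.392) and without KO placebo replicate 1 or 2 or KO SAMe replicate 1 or 4 (adjusted p up to 0.0714).

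Of 22 elastase and other protease inhibitors listed, 17 were named and 16 tested. In KO placebo over WT, 7 rose and 2 fell, where 19.8% and 20.4% of all features did. Their median log2 change was 0.22, against 0.0076 over all features. With the background set as a block the counts were 3 and 2, within the low set 2 and 2, and on the kept-probe scale 4 and 5 with a median of -0.11. For KO SAMe over KO placebo 1 rose and 4 fell (median -0.17, and -0.0022 over all features), against 0 and 1 with the background block. For KO SAMe over WT 3 rose and 2 fell (median 0.02). Over all features 10.8% rose and 7.69% fell in the first of these comparisons, and 9.49% and 8.09% in the second. Timp1, 1 of the 16, passed the detection filter only through KO placebo, and the counts of calls are the same over the other 15. The list holds inhibitors of trypsin, metalloproteases and other proteases beside those of elastase.

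Serpina3n, an acute-phase serpin of liver, rose by 1.47 (SE 0.20, limma adjusted p = 4.22e-06) in KO placebo over WT. It fell by 0.77 (SE 0.22, adjusted p = 0.0175) with SAMe, a call lost without KO SAMe replicate 4 (adjusted p = 0.0585) and within the low set (-0.64, adjusted p = 0.253). Serpina1e, one of the mouse alpha-1-antitrypsin genes, fell by 2.599 (SE 0.42, limma adjusted p = 3.93e-05) in KO placebo over WT and by 3.31 (SE 0.44, adjusted p = 2.46e-05) in KO SAMe over WT. The mouse Serpina1 genes are close copies, so 1 probe may read several of them. The other Serpina1 genes tested did not fall past the threshold in either comparison. For KO placebo over WT they changed by 0.73 (Serpina1a), 0.22 (Serpina1d), 0.11 (Serpina1c) and -0.0023 (Serpina1b). Other Serpina1b probes averaged 13.22 and 13.44 in KO placebo livers, against 13.05 and 13.19 in WT livers. Serpinb1a, an inhibitor of neutrophil elastase inside cells, changed by 0.41 (limma adjusted p = 0.222) in KO placebo over WT. It rose by 1.27 (SE 0.29, limma adjusted p = 0.00416) in KO SAMe over KO placebo, a call lost with the background block (0.94, adjusted p = 0.0858) and within the low set (0.90, adjusted p = 0.286), and by 1.68 (SE 0.27, limma adjusted p = 0.000177) in KO SAMe over WT, where it was detected on 5 of 5 and 5 of 8 arrays.

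Of 19 elastic fibre genes listed, 8 were named and 5 tested. Emilin1, an elastin-associated glycoprotein, passed the detection filter only through KO placebo, the group where it was highest (detected on 1 of 5 KO SAMe, 6 of 6 KO placebo and 1 of 8 WT arrays). Its changes of 0.49 for KO placebo over WT and -0.37 for KO SAMe over KO placebo are therefore a description and are left out of the counts. Of the other 4, 2 rose and 0 fell in KO placebo over WT: Loxl1, which cross-links elastin (0.86, limma adjusted p = 0.000228), and Fbln1, a matrix protein bound to elastic fibres (0.51, adjusted p = 0.0036). Fbln1 was detected on 5 of 5 KO SAMe, 5 of 6 KO placebo and 3 of 8 WT arrays. Both calls held within the low set (0.69, limma adjusted p = 0.0187, and 0.71, adjusted p = 0.00793). Over all 5 genes, 2 rose and 1 fell on the kept-probe scale. In the limma fit 19.8% of all features rose and 20.4% fell in KO placebo over WT, and 9.49% and 8.09% in KO SAMe over WT. None of the 4 passed for KO SAMe over KO placebo. For KO SAMe over WT, 2 rose, Fbln1 (0.87, limma adjusted p = 0.000199) and Loxl1 (0.58, adjusted p = 0.0246), of which Loxl1 did not pass without KO SAMe replicate 2 or 4.

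**Figure D5:**
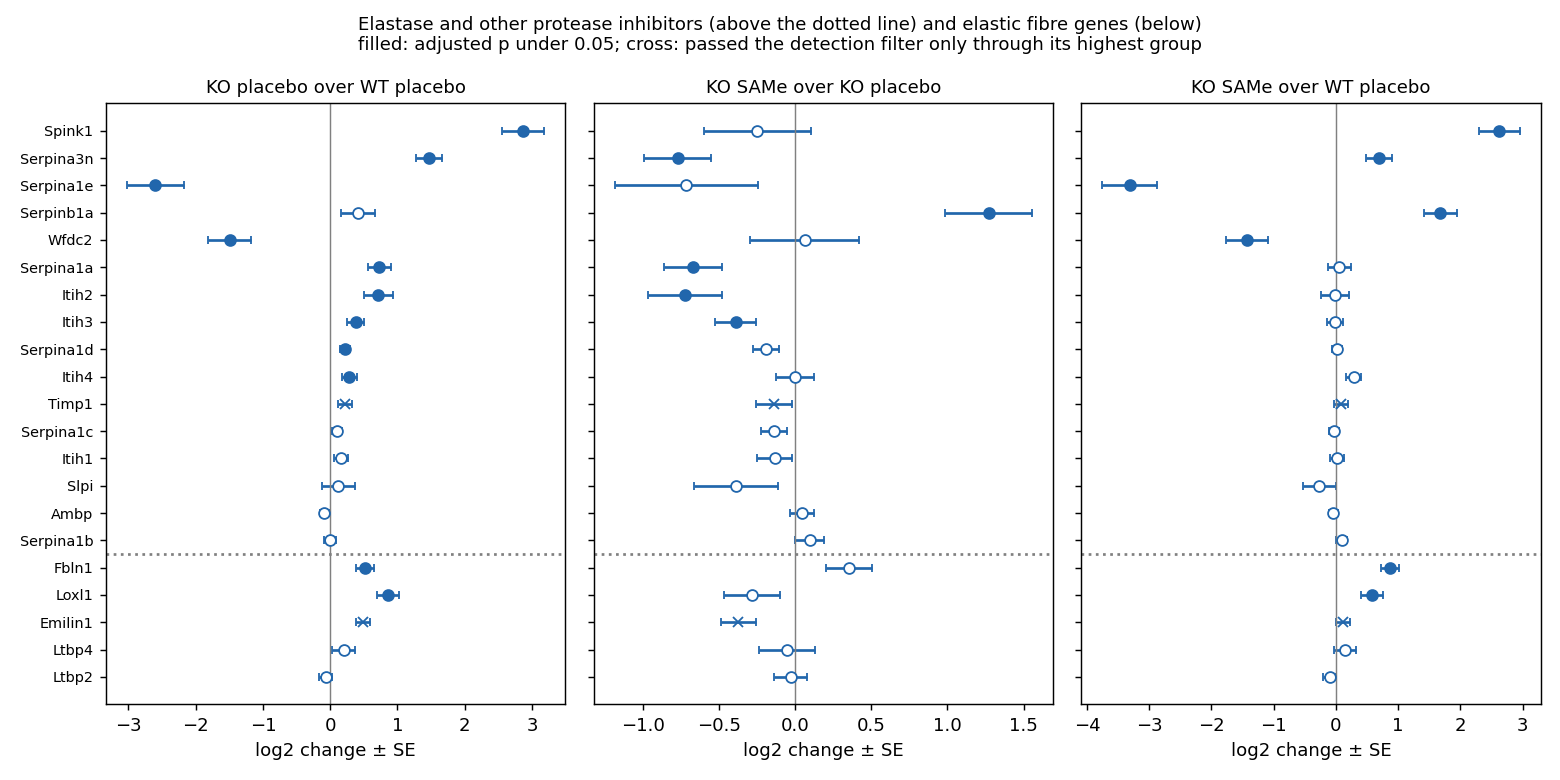
Log2 change ± SE in the 3 comparisons for 16 elastase and other protease inhibitors (above the dotted line) and 5 elastic fibre genes (below), filled where the limma adjusted p was under 0.05, with a cross for genes that passed the detection filter only through their highest group. Spink1 lies at 2.87, against WT arrays mostly below detection, and Serpina1e at -2.599 for KO placebo over WT.

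Liver's own proteases of the same chymotrypsin fold gave 36 listed, 27 named and 26 tested. For KO placebo over WT 6 rose and 3 fell, for KO SAMe over KO placebo 2 rose and 0 fell, and for KO SAMe over WT 3 rose and 1 fell. In that order, 19.8% and 20.4%, 10.8% and 7.69%, and 9.49% and 8.09% of all features rose and fell. The counts are not read as a result about these proteases. F11, coagulation factor XI, fell by 0.91 (SE 0.12, limma adjusted p = 3.4e-06) in KO placebo over WT. F10 (coagulation factor X) and Htra2 (a mitochondrial protease) rose by 0.52 (limma adjusted p = 0.00265) and 0.50 (adjusted p = 0.00696) in KO SAMe over KO placebo. Within the low set these were as large or nearly so but did not pass (0.44, limma adjusted p = 0.173, and 0.53, adjusted p = 0.168), and scaled to the median of all probes 1 gene rose and 3 fell. Other Htra2 probes averaged 5.28 and 4.73 in KO SAMe livers, against 4.95 and 4.69 in KO placebo livers, the latter pair nearly alike. Plat passed the filter only through KO placebo, and without it 5 of 25 rose in KO placebo over WT. With KO placebo set against WT, the counts over all 26 were 11 and 3 with the background block, 0 and 2 within the low set, and 4 and 8 on the kept-probe scale. Of 16 neutrophil and mast cell protease genes and markers, 6 were named and 3 tested, and 0 passed in any comparison. Their summed intensity was 122 to 243 in KO SAMe, 119 to 271 in KO placebo and 120 to 419 in WT livers. Of 14 gastric and intestinal genes 1, Gkn3, was tested and passed in none. Gkn3 was detected on 1 of 5 KO SAMe, 3 of 6 KO placebo and 2 of 8 WT arrays. So near the floor, its values do not bound a change of the transcript. For KO placebo over WT 3 of the 8 hepatocyte markers rose and 1 fell, against 19.8% and 20.4% of all features. Those that rose were Hnf4a (0.98, limma adjusted p = 2.78e-06), Ahsg (0.63, adjusted p = 0.000623) and Cyp2e1 (0.42, adjusted p = 0.000831). Alb, albumin, changed by -0.60 (limma adjusted p = 0.0151). On the kept-probe scale 1 marker rose and 2 fell, and within the low set 2 rose and 0 fell. For KO SAMe over KO placebo Alb changed by 0.80 (limma adjusted p = 0.0125) and Hnf4a by -0.61 (adjusted p = 0.00504). Both of these calls ended within the low set, where 0 rose and 0 fell. Both Alb calls ended with the background block (-0.29, limma adjusted p = 0.284, and 0.42, adjusted p = 0.274). The Alb probe averaged 6.69 in KO SAMe, 5.90 in KO placebo and 6.49 in WT livers, where Apoa1 averaged 13.30, 13.26 and 13.37. What so dim an Alb probe says of the albumin transcript is uncertain.

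The genes whose pattern over 19 arrays was most like Cela1's were Sirt7 (r = 0.96), Alg5 (0.94), Vmo1 (0.94), Ahnak (0.93) and Fn3k (0.93). After taking out group means the same correlations were 0.82, 0.70, 0.70, 0.70 and 0.68. For Cela2a they were Nkap (0.88), Xrcc6 (0.88), Bzw1 (0.87), Clcn2 (0.85) and Bola2 (0.85), and 0.62, 0.50, 0.53, 0.73 and 0.48 within groups. Cela2a ranked at 1407 among 8529 named genes by its likeness to Cela1. These correlations are across arrays that share groups and the confounded background sets, and are a description.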

How the data were processed

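Liver RNA of 19 mice was hybridised to single-colour BeadChips, 1 array per animal ID, grouped by the genotype and treatment that the labels name. The authors deposited a raw mean bead intensity and a detection p-value for each of 45281 probes. A second deposited table gives log2 values of 17592 probes. Recomputed from the raw table, these are quantile-normalized log2 signals, and each listed probe has a detection p below 0.01 on 1 array or more. These log2 values were used as an alternative.

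Background was removed by the normexp model in limma 3.58.1 (R 4.3.3), with an offset of 16 and background inferred through each probe's detection p-value, before quantile normalization and log2. Quantile normalization hides a shift of most genes in 1 direction. A probe was kept where 5 or more arrays had a detection p below 0.05, with 1 probe per gene (the brightest by mean), leaving 10831 features, 8529 named genes and 2302 unnamed probes. In the platform annotation 14737 probes had 1 gene symbol, 10 several, while 2845 listed in the second table had none. Of the named probes 14715 matched RefSeq (GRCm38.p6). Probes outside that table are unnamed here.

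The 3 comparisons were made in 1 limma fit over all arrays (lmFit and eBayes, two-sided), with Benjamini-Hochberg adjustment over all features and a threshold of 0.05. SE comes from the fit, and SD is between arrays. Correlations within groups used exact permutations over 12 relations. The number of arrays limits the precision. The script was tested on simulated data with known changes. The genes named were the 4 described, up to 4 per list with the largest moderated t, and the 5 most like each elastase by Pearson correlation over 19 arrays. The genes and lists were chosen with earlier results of these data known. Alternatives covered background correction, scaling, filters, probe choice, background sets, ID letters and each array left out.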

Additional observations from a re-analysis of the deposited data

Results flagged for a closer look

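In 15 groups of arrays (5 probes in 3 groups) the highest or lowest array was set against the gap to its neighbour, and 3 stood far from the rest. All 3 were near the detection floor. The second Amy2a5 probe stood at 4.43 in KO placebo replicate 3, the highest of its group, and at 4.70 in WT replicate 8, the highest of its group and the single array where that probe was detected. Cpb1 stood at 4.53 in KO SAMe replicate 1, the highest of its group. Chance flags about 1 in 20 groups. No Cela1 or Cela2a array was among them.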

How the results depend on the processing

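Cela1 and Cela2a kept their direction in each comparison under all 13 settings tried and on leaving out each array, while the sizes moved. The Cela2a change for KO placebo over WT was -0.47 with normexp fitted on the intensities and an offset of 50, -0.3632 without background correction and -0.3634 in the authors' log2 values, and for KO SAMe over KO placebo 0.67, 0.521 and 0.5189. Cela1 changed by -1.1277 without background correction, -1.1292 in the authors' values and -1.10 in the low-background set for KO placebo over WT, and by 0.4392 scaled to the median of all probes, 0.41 in the low set and 0.4435 with the ID letter (a term that rests on 1 KO SAMe array) for KO SAMe over KO placebo. Scaled to the median of the kept probes, Amy2a5 gave -0.48 for KO placebo over WT (limma adjusted p = 0.0152) and 0.16 for KO SAMe over KO placebo. Cpb1 gave -0.24 and 0.16 there, as a description. Amy2a5 gave 0.13 for KO placebo over WT in the low set. Cpb1 gave -0.034 with the block, -0.12 in the low set and -0.15 with the letter for KO placebo over WT, and 0.051 in the low set and 0.028 with the letter for KO SAMe over KO placebo. The cause of these sign changes was not tested.

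Features called for KO SAMe over KO placebo numbered 3355 scaled to all probes (202 higher, 3153 lower), 3492 scaled to kept probes (2608 higher, 884 lower), 1268 without the filter, 1003 with the block, 76 in the low set and 1 with the letter (Fzd7), against 2000. For KO SAMe over WT they were 1189 without the filter, against 1904. For KO placebo over WT they were 1979 in the low set and 54 with the letter, against 4359, and the share that rose was 49.3%, but 80.2% scaled to all probes and 28.0% scaled to kept probes, scales that moved the median of all features by 0.18 and -0.20. Of the correlations 1 passed, and 0 passed under each of 5 alternatives. Cela1 and Cela2a in KO placebo had r = -0.0709 without the 2 farthest arrays.

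Leaving out each array in turn gave 3871 to 4436 features for KO placebo over WT, 1373 to 2209 for KO SAMe over KO placebo and 1213 (without KO SAMe replicate 2) to 2064 for KO SAMe over WT. Changes ran, in that order of comparisons, from -1.67 to -1.34, 0.67 to 0.998 and -0.70 to -0.61 for Cela1, from -1.10 to -0.89, 1.25 to 1.47 and 0.24 to 0.48 for Cela2a, from -0.20 to -0.036, -0.13 to 0.076 and -0.26 to -0.059 for Amy2a5, and from 0.01 to 0.093, -0.17 to -0.080 and -0.12 to -0.038 for Cpb1. No paired analysis was made, because each array carried its own animal ID and the groups held different animals. The labels give no replicate numbers, so those used here follow the order of the samples within each group. Near the array background, as for Cela2a and Cpb1, signal limits how far a change can be measured.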
